A study of Homo sapiens with 6 samples.

Results

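The machinery that copies DNA, apart from the MCM helicase, was followed here through 38 genes chosen by name and role. The choice was made with earlier results of these data known, so it is not independent of them. All 38 were among the 28752 genes of the table, and all 38 passed the filter on low counts, which left 16458 genes to test. They cover origin licensing and firing, the polymerases and primase, the sliding clamp and its loaders, nucleotide supply, chromatin assembly and fork protection. The cells were SH-SY5Y, a human neuroblastoma line. Cells transfected with OE-circSHPRH were compared with cells given OE-NC, 72 h later and in 3 libraries a group. No other agent or allele is named in the labels. They do not explain OE-NC, which is read here as the negative control. Nor do they say whether the 3 libraries of a group came from separate cultures, so p-values measure only the spread between these libraries, which may be technical.

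Before a cell divides, the origin recognition complex, CDC6 and CDT1 place the MCM helicase on origins. A kinase, CDC45 and the GINS complex then switch that helicase on, and polymerases copy both strands behind it while the clamp PCNA holds them on DNA. Most of these genes are transcribed late in G1 and in S phase under E2F factors, which the retinoblastoma proteins restrain when cyclin-dependent kinases (CDKs) are inhibited. The series title links the peptide encoded by circ-SHPRH to p21, the CDK inhibitor encoded by CDKN1A. Neuroblastoma lines divide continuously, so replication mRNAs are part of their steady state.

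Totals per library ran from 15645261 to 17591718 counts, and the 38 genes took 0.101% to 0.114% of them. SHPRH itself had 394, 409 and 472 counts in OE-NC and 1395, 1121 and 1071 in OE-circSHPRH, and was 2.91-fold higher (log2 fold change 1.54, standard error 0.083). These counts do not separate the circular from the linear transcript or from the construct. CDKN1A stood at 769, 770 and 764 CPM (counts scaled to library size, with TMM factors) in OE-NC and at 997, 1026 and 1074 in OE-circSHPRH. The libraries carried the noradrenergic neuroblastoma markers HAND2 (343 to 381 FPKM) and GATA3 (184 to 201). All 8 markers on that list were detected, with a summed level of 1191 to 1209 FPKM in OE-NC and 1215 to 1250 in OE-circSHPRH. TH was the lowest of the 8, at 2.632 to 3.916 FPKM. PECAM1 of the endothelial list and KRT8 of the epithelial list stayed at or under 0.016 and 0.049 FPKM. EPCAM, also of the epithelial list, was higher, at 0.4937 to 0.9455 FPKM. Of the 4 fibroblast markers COL1A2 was at or under 0.0053 FPKM. DCN (6.864 to 7.996 FPKM), PDGFRB (3.968 to 4.795) and COL1A1 (2.804 to 3.395) were detected in every library. The fibroblast list summed to 13.8 to 14.7 FPKM in OE-NC and 14.7 to 15.1 in OE-circSHPRH. The endothelial list, with 2 of 3 markers in the table, summed to 0.0054 to 0.033 FPKM in OE-NC and 0.022 to 0.047 in OE-circSHPRH. The epithelial list, with 3 of 4, summed to 0.596 to 0.973 and 0.626 to 0.780. Of the blood list, 0 of 4 markers were in the table.

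The replication genes had slightly lower mRNA levels in OE-circSHPRH, spread over nearly the whole list and small gene by gene. Of the 38 genes, 37 had a negative log2 fold change, against 49.2% of all genes tested. The median was -0.13, or 0.915-fold, where that of all genes tested was 0.0018. CDT1, FEN1, TIMELESS, RRM2, POLE, POLA1 and RFC3 had the smallest p-values. The exception in direction was TYMS, with a log2 change of 0.06 (SE 0.065). In bulk RNA, fewer cells in S phase and less of these mRNAs per cell cannot be told apart.

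No single gene of the 38 passed at an adjusted p under 0.05. The test was edgeR's quasi-likelihood F-test, adjusted by Benjamini-Hochberg over all genes, by which 0.0608% of all genes passed as lower and 0.128% as higher. At an unadjusted p under 0.05, 15 of the 38 were lower and 0 were higher, where 5.02% of all genes were lower and 5.33% higher. DESeq2 called 0 of the 9 genes for which it gave an adjusted p. It called 0.17% of all genes lower, a share whose base includes genes without an adjusted p. At an unadjusted p under 0.05 it had 12 of the 38 as lower (3.35% of all genes). By limma-voom 0 were lower after adjustment (0.0668% of all genes) and 15 before (5.04%). In 12 of the 38 genes every OE-circSHPRH library lay below every OE-NC library, which held for 7.57% of all genes. No gene of the 38 had all OE-circSHPRH libraries above OE-NC, against 7.99% of all genes. Of the 38 genes, 9 had a negative change with p under 0.05 in the authors' deposited table, against 1.82% of its 28752 genes. Unlike the shares above, those of this table also count genes that the filter on low counts left out. None passed in that table after adjustment (0.0939% of its genes), and the smallest deposited adjusted p of the 38 was 0.133, for FEN1. CDT1 had a smaller deposited p than FEN1 (0.00123 against 0.00291) but a larger deposited adjusted p. For most of the 38 genes, among them CDT1, RRM2, CDC45 and POLA1, that value may therefore stand for a missing one. Such genes could not have passed.

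The 3 libraries of each group were alike in this respect. Summed over the 38 genes, the level was 1129, 1110 and 1129 CPM in OE-NC and 1036, 1025 and 1008 CPM in OE-circSHPRH. The groups did not overlap. Relative to the OE-NC mean of each gene, the median gene stood at -0.11, -0.16 and -0.15 on the log2 scale in OE-circSHPRH replicates 1, 2 and 3. In each of these libraries 34 of the 38 genes lay below that mean. The OE-NC libraries themselves had medians of 0.0044, -0.0089 and 0.0027. As their own mean is the reference, these centre on 0 by construction, and only their spread is informative. The median over all genes was at most 0.00353 in all 6 libraries.

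**Figure D1:**
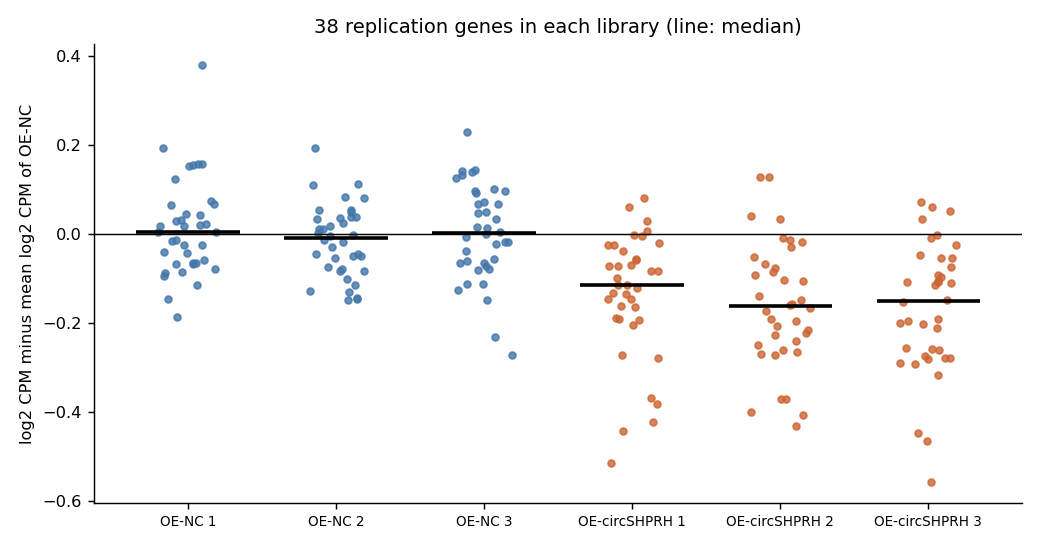
Each point is 1 of the 38 replication genes in 1 library, as log2 CPM minus the mean log2 CPM of the 3 OE-NC libraries (vertical axis). Black lines mark the median, which lies between -0.0089 and 0.0044 in OE-NC (blue) and between -0.16 and -0.11 in OE-circSHPRH (orange).

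Libraries also differed in the share of counts from mitochondrially encoded genes, and this cut across the groups. The first 2 OE-NC libraries, and OE-circSHPRH replicate 3, had 10.2% to 10.3%, and the other 3 libraries 11.4% to 12.1%. Among the low-share libraries the median difference of the 38 genes was -0.16, with 32 negative. Among the high-share libraries it was -0.15, with 33 negative. The matching shares of negative values over all genes were 49.3% and 50.5%. Each of these comparisons has a single library on one side.

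The promoters of 36 of the 38 genes were found in RefSeq (GRCh38.p14), as 250 bases before and 50 bases after the transcription start. For each gene the promoter whose start lay nearest the deposited gene start was used. Shares over all promoters count every promoter, without such a choice per gene and without regard to expression. The sets are thus unlike. An E2F motif (TTTCCCGC, TTTGGCGC, TTTCGCGC or TTTGCCGC, on either strand) was present in 15 of these 36, or 41.7%, and in 3.3% of all 35116 promoters of the table. The CCAAT box (CCAAT, either strand) was in 47.2% of the 36 and 34.6% of all promoters, and the CHR element (TTTGAA, either strand) in 5.6% and 15.2%. Median log2 fold changes were -0.17 for the 15 genes with an E2F motif and -0.12 for the 21 without, and each set had 7 genes at an unadjusted p under 0.05. Whether genes with and without the motif differ was not tested. The 4 promoters below belong to the genes with the smallest p among those that hold the motif. They are shown because E2F sites are the feature by which replication genes are best known. In these 4 genes every OE-circSHPRH library lay below every OE-NC library. That also held for CDC6, GINS3, POLA2 and UHRF1, which hold the motif, and for FEN1, TIMELESS, RRM2 and CHAF1B, which do not. The promoters are written 5′ to 3′ on the strand of the gene, with the E2F motif in capitals.
CDT1, chr16:88803539-88803838, plus strand: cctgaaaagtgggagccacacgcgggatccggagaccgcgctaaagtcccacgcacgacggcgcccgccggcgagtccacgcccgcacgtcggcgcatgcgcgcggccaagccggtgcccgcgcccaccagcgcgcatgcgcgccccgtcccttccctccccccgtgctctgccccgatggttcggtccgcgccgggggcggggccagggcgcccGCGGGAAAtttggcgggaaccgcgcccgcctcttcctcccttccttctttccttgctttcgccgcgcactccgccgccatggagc
POLE, chr12:132687293-132687592, minus strand: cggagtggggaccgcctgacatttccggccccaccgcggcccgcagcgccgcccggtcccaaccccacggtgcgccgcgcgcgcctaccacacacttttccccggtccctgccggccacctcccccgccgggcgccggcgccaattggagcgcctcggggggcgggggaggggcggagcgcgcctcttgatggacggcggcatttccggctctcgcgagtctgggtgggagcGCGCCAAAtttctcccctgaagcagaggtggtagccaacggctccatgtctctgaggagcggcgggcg
POLA1, chrX:24693668-24693967, plus strand: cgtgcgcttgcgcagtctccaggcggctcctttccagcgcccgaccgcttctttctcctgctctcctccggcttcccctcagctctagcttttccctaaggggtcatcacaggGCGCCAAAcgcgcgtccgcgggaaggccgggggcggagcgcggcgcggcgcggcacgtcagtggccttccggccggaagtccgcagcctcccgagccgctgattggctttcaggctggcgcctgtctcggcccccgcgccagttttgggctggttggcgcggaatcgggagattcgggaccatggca
RFC3, chr13:33817899-33818198, plus strand: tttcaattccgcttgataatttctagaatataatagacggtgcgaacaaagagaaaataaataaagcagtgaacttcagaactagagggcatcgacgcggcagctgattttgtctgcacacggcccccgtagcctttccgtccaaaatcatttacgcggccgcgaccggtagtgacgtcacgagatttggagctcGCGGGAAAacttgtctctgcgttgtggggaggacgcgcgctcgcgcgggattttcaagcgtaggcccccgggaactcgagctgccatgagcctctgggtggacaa
In each of the 4 the motif lay on the opposite strand to the gene. Its first base was 35 bases before the start in CDT1, 18 in POLE, 137 in POLA1 and 55 in RFC3. CDT1 and RFC3 share the same 8 letters, and so do POLE and POLA1. A match in letters does not show binding.

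Among the licensing genes, all 5 had negative log2 fold changes, with a median of -0.13. CDT1 (chromosome 16, 88803213 to 88809258, plus strand, GRCh38), which brings the MCM complex to the origin, had the smallest p of the 38 genes and ranked 61 among all 16458. Its level was 25.3, 28.1 and 26.2 CPM in OE-NC and 20.3, 19.9 and 22.1 CPM in OE-circSHPRH. The 3 OE-circSHPRH libraries all lay below the lowest OE-NC library. Its log2 fold change was -0.35 (standard error, SE, 0.0815; 95% interval -0.52 to -0.18), at an edgeR adjusted p of 0.0978. CDT1 passed when OE-circSHPRH replicate 3 was left out (adjusted p = 0.0159), without the filter on low counts (0.0206) and with the class of mitochondrial share as a term (0.0481). More genes of the whole table also passed in these 3 fits (311, 194 and 171, in either direction). In the fit without these changes 10 passed as lower and 21 as higher. Over 11 alternatives the adjusted p of CDT1 ran up to 0.398, and its log2 fold change from -0.40 to -0.31.

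GMNN encodes geminin, the protein that binds CDT1 and blocks relicensing, and its level was 14.4, 13.8 and 16.3 CPM in OE-NC and 14.2, 13.2 and 14.7 in OE-circSHPRH. These ranges overlapped (log2 fold change -0.08, SE 0.105). By the authors' FPKM, which is per length, the ratio of CDT1 to GMNN averaged 1.34 ± 0.164 for OE-NC and 1.10 ± 0.0358 for OE-circSHPRH (SD, n = 3 each). The ranges of this ratio, 1.19 to 1.51 and 1.06 to 1.12, did not overlap. ORC6, a subunit of the origin recognition complex, stood at 30.6, 32.2 and 30.1 CPM against 30.5, 25.6 and 29.04 CPM, and OE-circSHPRH replicate 1 lay within the OE-NC range. CDC6, the loader that acts with CDT1, had 18.1, 18.3 and 17.1 CPM in OE-NC and 15.9, 15.9 and 16.5 in OE-circSHPRH, without overlap. Its log2 fold change was nonetheless -0.15 with an SE of 0.091, and its unadjusted edgeR p was 0.126. ORC1, the largest subunit of that complex, had a log2 change of -0.08 (SE 0.127).

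Origin firing genes were negative in 7 of 7 cases with a median of -0.19, and 3 of them had an unadjusted p under 0.05. CDC45 (chromosome 22, 19479459 to 19520612), which joins MCM and GINS to form the active helicase, had 13.9, 16.0 and 16.5 CPM in OE-NC and 11.5, 14.3 and 11.3 in OE-circSHPRH. OE-circSHPRH replicate 2 exceeded OE-NC replicate 1, so the groups overlapped by that library. The log2 fold change was -0.33 (SE 0.116, edgeR adjusted p = 0.303).

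The 4 GINS subunits form a tetramer that couples CDC45 to the helicase. GINS4 had 11.8, 10.5 and 9.5 CPM in OE-NC and 9.8, 7.8 and 7.6 in OE-circSHPRH, and GINS3 had 9.6, 9.2 and 12.0 against 7.9, 8.5 and 8.4. The GINS3 groups were separate and the GINS4 groups were not. Log2 fold changes were -0.33 (SE 0.134) for GINS4, -0.32 (SE 0.132) for GINS3, -0.19 (SE 0.120) for GINS2 and -0.09 (SE 0.109) for GINS1. On the per-length scale GINS1 was the highest of the 4 in OE-NC, at 4.73 ± 0.742 FPKM, followed by GINS2 at 3.56 ± 0.251, GINS3 at 1.99 ± 0.290 and GINS4 at 1.92 ± 0.203 (SD, n = 3 each). GINS3 and GINS4 did not differ beyond their spread. The ratio of GINS1 to GINS4 was 2.25 to 2.66 in the OE-NC libraries and 2.67 to 3.20 in OE-circSHPRH.

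CDC7 is the kinase that phosphorylates MCM at firing, and DBF4 is its activating subunit. CDC7 had 27.4, 25.7 and 30.7 CPM in OE-NC and 28.5, 25.3 and 23.3 in OE-circSHPRH, and DBF4 had 29.1, 29.3 and 31.5 against 29.5, 29.7 and 24.0. For both genes the groups overlapped, and the log2 fold changes were -0.12 (SE 0.088) and -0.11 (SE 0.084). The CDC7 value was -0.05 without OE-NC replicate 3, -0.06 without OE-circSHPRH replicate 3 and -0.21 without OE-circSHPRH replicate 1. That of DBF4 ran from -0.18 to -0.02 over 12 alternatives. Their FPKM ratio was 1.20 ± 0.0648 and 1.20 ± 0.0869 (SD, n = 3 each) in OE-NC and OE-circSHPRH.

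**Figure D2:**
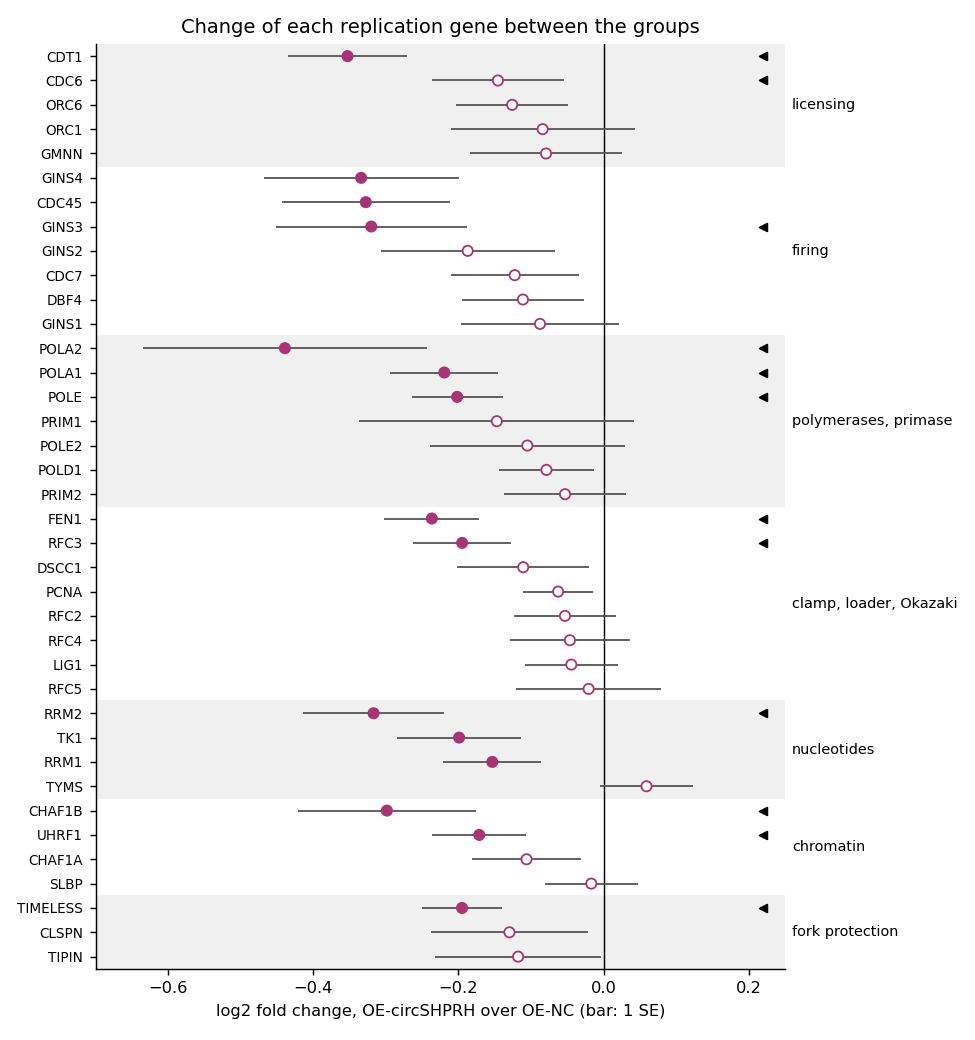
Log2 fold change of OE-circSHPRH over OE-NC for each gene (horizontal axis), grouped by role, with bars of 1 SE and 3 libraries per group. Filled points have an unadjusted p under 0.05 (15 genes) and black arrowheads mark the 12 genes whose groups did not overlap, and TYMS alone lies to the right of 0.

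The polymerase and primase genes were negative in 7 of 7 cases, with a median of -0.15. POLE (chromosome 12, 132623753 to 132687365, minus strand) encodes the catalytic subunit of the leading-strand polymerase. It had 65.3, 58.1 and 56.7 CPM in OE-NC and 53.5, 51.2 and 51.7 in OE-circSHPRH, and its log2 fold change was -0.20 (SE 0.063, edgeR adjusted p = 0.234). POLA1 (chromosome X, 24693919 to 24996986, plus strand), the catalytic subunit of the polymerase that starts each fragment, had 30.0, 28.5 and 30.3 CPM against 26.8, 25.4 and 24.2, with a log2 change of -0.22 (SE 0.074, adjusted p = 0.270). In both genes every OE-circSHPRH library was below every OE-NC library.

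POLA2, the accessory subunit of that polymerase, had the most negative log2 fold change of the 38, -0.44, but also the largest SE, 0.195, since it rested on 46 to 83 counts per library. Its level was 3.9, 4.7 and 3.8 CPM in OE-NC and 3.0, 3.4 and 2.8 in OE-circSHPRH, without overlap. AP000944.2, annotated on the same strand, shares 35.1% of the POLA2 exon bases and had a mean of 6.33 counts against 60.2 for POLA2, so reads of these genes may have been split. POLD1, the catalytic subunit of the lagging-strand polymerase, was at 37.2, 37.7 and 35.3 CPM against 33.8, 35.04 and 35.5. The OE-circSHPRH library of replicate 3 reached into the OE-NC range, and the log2 fold change was -0.08 (SE 0.066). POLE2, the accessory subunit of the leading-strand polymerase, and the primase subunits PRIM1 and PRIM2 had log2 fold changes of -0.11, -0.15 and -0.05 with SEs of 0.135, 0.189 and 0.085. Per length, POLD1 was the highest of the 7 in OE-NC (7.37 ± 0.250 FPKM) and POLA2 the lowest (0.716 ± 0.0886 FPKM; SD, n = 3 each).

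In the clamp and Okazaki fragment group, 8 of 8 values were negative, and the median was -0.06. Okazaki fragments are the short pieces in which the lagging strand is made. FEN1 (chromosome 11, 61792637 to 61797244, plus strand), the nuclease that trims their flaps, had 72.1, 61.1 and 61.6 CPM in OE-NC and 56.2, 54.8 and 54.2 in OE-circSHPRH. OE-NC replicate 1 was the highest library, and the groups did not overlap. Its log2 fold change was -0.24 (SE 0.0655, edgeR adjusted p = 0.168), and the value without OE-NC replicate 1 was -0.16. FEN1 passed in 1 of 12 alternatives, without the filter on low counts (adjusted p = 0.0399), and its adjusted p ran up to 0.612. In that fit without the filter 194 of all 28752 genes passed. LIG1, the ligase that seals the trimmed fragments, was at 45.4, 42.6 and 44.2 CPM against 40.7, 45.1 and 42.4, and the groups overlapped (log2 fold change -0.04, SE 0.064).

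RFC2, RFC3, RFC4 and RFC5 encode the small subunits of the complex that opens PCNA and loads it on DNA. RFC3 (chromosome 13, 33818049 to 33966558) had 37.0, 37.0 and 36.8 CPM in OE-NC and 33.6, 32.7 and 30.4 in OE-circSHPRH, with a log2 change of -0.19 (SE 0.067, edgeR adjusted p = 0.283). RFC2 had 36.1, 35.5 and 36.4 CPM against 37.6, 34.1 and 32.4, and here OE-circSHPRH held both the highest and the lowest library. RFC2, RFC4 and RFC5 had log2 fold changes of -0.05, -0.05 and -0.02, with SEs of 0.070, 0.082 and 0.0999. DSCC1, a subunit of the alternative CTF18 clamp loader, had one of -0.11 (SE 0.091). On the per-length scale in OE-NC the loader subunits ran from RFC2 at 16.1 ± 0.20 through RFC3 at 12.7 ± 0.0456 and RFC4 at 8.25 ± 0.318 to RFC5 at 6.18 ± 0.697 FPKM (SD, n = 3 each).

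PCNA (chromosome 20, 5114953 to 5126626, minus strand), the clamp that SHPRH ubiquitinates, was the most abundant of the 38 genes per length, averaging 77.2 ± 3.15 FPKM for OE-NC and 74.0 ± 2.22 for OE-circSHPRH (SD, n = 3 each). It had 110, 116 and 119 CPM in OE-NC and 109, 114 and 107 in OE-circSHPRH. The groups overlapped, since OE-circSHPRH replicate 2 lay above OE-NC replicate 1. The log2 fold change was -0.06 with an SE of 0.049, the smallest of the 38, and a 95% interval of -0.16 to 0.04 (edgeR adjusted p = 0.712). The ratio of PCNA to FEN1 by FPKM was 2.56 to 3.25 in OE-NC and 3.27 to 3.49 in OE-circSHPRH, while that of PCNA to RFC2 overlapped (4.56 to 4.91 and 4.36 to 5.004). In other roles, the FPKM ratios of POLA1 to POLA2, PRIM2 to PRIM1, POLE to POLE2 and CHAF1A to CHAF1B overlapped as well. How often ratios of other gene pairs separate the groups was not tested.

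**Figure D3:**
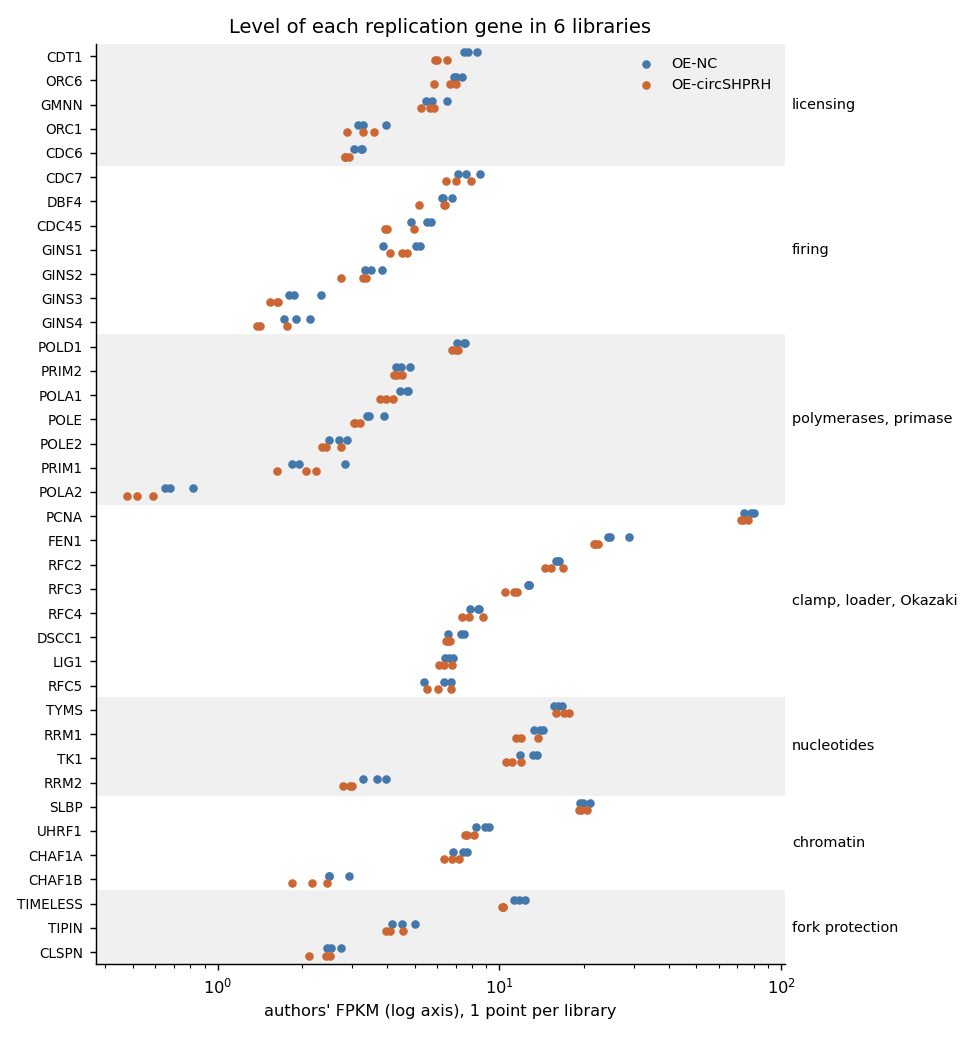
The authors' FPKM of each gene on a log axis (horizontal), 1 point per library, with OE-NC in blue and OE-circSHPRH in orange, ordered by level within each role. PCNA stands highest at 77.2 FPKM and POLA2 lowest at 0.716 FPKM in OE-NC, and the spread between genes is far wider than any difference between groups.

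In nucleotide supply, 3 of 4 genes had negative values, each with an unadjusted p under 0.05. RRM2 (chromosome 2, 10120698 to 10131419, plus strand), the S-phase subunit of ribonucleotide reductase, had 19.7, 17.6 and 21.3 CPM in OE-NC and 16.1, 15.03 and 15.9 in OE-circSHPRH. No library overlapped the other group, and the log2 fold change was -0.32 (SE 0.097, edgeR adjusted p = 0.219). AC007240.1, on the same strand, shares 20.2% of the RRM2 exon bases and had a mean of 10.2 counts against 294 for RRM2. RRM1, the large subunit of the same enzyme, had 55.9, 58.7 and 60.1 CPM against 58.0, 48.4 and 50.6, and OE-circSHPRH replicate 1 lay within the OE-NC range (log2 fold change -0.15, SE 0.068). By FPKM the ratio of RRM1 to RRM2 was 3.82 ± 0.373 in OE-NC and 4.25 ± 0.297 in OE-circSHPRH (SD, n = 3 each), with overlapping ranges.

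TK1, the thymidine kinase of S phase that salvages thymidine, had 24.7, 25.6 and 22.3 CPM in OE-NC and 19.9, 20.9 and 22.4 in OE-circSHPRH (log2 fold change -0.20, SE 0.0855, edgeR adjusted p = 0.417). OE-circSHPRH replicate 3 was marginally above OE-NC replicate 3. TYMS, the synthase that makes thymidylate anew, had 41.6, 39.2 and 40.4 CPM against 39.7, 44.2 and 42.5, and the groups overlapped. Its 95% interval was -0.08 to 0.19 (edgeR adjusted p = 0.819). TYMS shares 39.1% of its exon bases with ENOSF1 on the opposite strand, and whether strand was used in counting is not given in the sources used here, so the reads of this pair may be mixed. ENOSF1 had a log2 change of 0.02 (SE 0.065).

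The 4 genes of chromatin assembly, methylation upkeep and histone mRNA were all negative, and 2 of them had an unadjusted p under 0.05. UHRF1, which brings the maintenance DNA methyltransferase to newly copied DNA, had 47.7, 43.0 and 46.1 CPM in OE-NC and 39.9, 39.2 and 42.3 in OE-circSHPRH (log2 fold change -0.17, SE 0.065, edgeR adjusted p = 0.340). CHAF1B, the middle subunit of the histone chaperone CAF-1, had 15.2, 12.9 and 12.8 CPM against 9.5, 12.6 and 11.2 (log2 fold change -0.30, SE 0.123, adjusted p = 0.390). Neither gene overlapped between groups. CHAF1B came close to doing so, with OE-circSHPRH replicate 2 just under OE-NC replicates 2 and 3. Its value was -0.20 without OE-circSHPRH replicate 1 and -0.22 without OE-NC replicate 1, and its unadjusted p was above 0.05 in both fits. CHAF1A, the large CAF-1 subunit, had a log2 change of -0.11 (SE 0.075). SLBP, which binds the stem-loop of histone mRNAs, was at 42.8, 39.5 and 40.4 CPM against 39.9, 42.1 and 39.4, with overlap and a log2 change of -0.02 (SE 0.064). Its sign turned positive without OE-NC replicate 1 (0.02) or without OE-circSHPRH replicate 3 (0.0016).

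All 3 fork protection genes were negative. TIMELESS (chromosome 12, 56416373 to 56449403, minus strand), which with TIPIN steadies the moving fork, had 66.1, 69.1 and 72.5 CPM in OE-NC and 60.7, 60.6 and 60.2 in OE-circSHPRH. The OE-circSHPRH libraries were nearly identical and lay below all of OE-NC. The log2 fold change was -0.19 (SE 0.056, edgeR adjusted p = 0.175), and the adjusted p ran from 0.0504 to 0.478 over 12 alternatives. CLSPN, the adaptor that carries the checkpoint signal from ATR to CHK1, had 13.8, 13.3 and 15.02 CPM against 13.2, 13.7 and 11.6, which overlapped (log2 fold change -0.13, SE 0.108). TIPIN had a log2 change of -0.12 (SE 0.114). Per length the ratio of TIMELESS to TIPIN was 2.59 ± 0.205 in OE-NC and 2.46 ± 0.168 in OE-circSHPRH (SD, n = 3 each).

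The precision of these values followed the counts. Of the 38 genes, 36 had at least 100 counts in each library, and SEs ran from 0.0487 for PCNA to 0.195 for POLA2. The 95% interval lay wholly below 0 for 15 genes and spanned 0 for 23, and it reached below -0.5 for 8. CHAF1B was not the only gene to lose an unadjusted p under 0.05 with 1 library left out. GINS4 (OE-NC replicate 1, OE-circSHPRH replicate 2 or 3) and POLE (OE-NC replicate 1) were among the others. So were UHRF1 (OE-NC replicate 1 or OE-circSHPRH replicate 2) and TK1 (OE-NC replicate 1 or 2, OE-circSHPRH replicate 1 or 2). GINS3, POLA2 and RRM1 had an unadjusted p under 0.05 in 10, 7 and 6 of the 12 alternatives, some of which keep all libraries. Values of genes above that threshold also moved: ORC6 was at -0.06 without OE-circSHPRH replicate 2, CLSPN at -0.08 without OE-NC replicate 3 and -0.06 without OE-circSHPRH replicate 3. PCNA was at -0.09 and -0.04 without OE-NC replicates 1 and 3. TYMS stood at 0.04 without OE-NC replicate 2 and at 0.02 and 0.10 without OE-circSHPRH replicates 2 and 1. A p that misses the threshold does not show that a gene was the same in both groups.

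Beside the 38, 46 further replication genes were tested, 40 of the same roles and the 6 helicase genes MCM2 to MCM7, and 38 of these 46 had negative values with a median of -0.10. The genes that passed at an adjusted p under 0.05 were MCM5 and MCM2, which encode helicase subunits (log2 fold changes -0.40 and -0.35, edgeR adjusted p = 0.00625 and 0.0140). MCM5 lost its call without OE-NC replicate 1, OE-NC replicate 2 or OE-circSHPRH replicate 2 (adjusted p = 0.0634, 0.0657 and 0.0553). MCM2 lost it without OE-NC replicate 1 or OE-circSHPRH replicate 2 (0.154 and 0.0934). Over 12 alternatives the adjusted p ran from 2.32e-05 to 0.0744 for MCM5 and from 0.000106 to 0.154 for MCM2. MCM4, another helicase subunit, came next with -0.25 (SE 0.055) and an adjusted p of 0.0788. MCM4 passed in 4 of 12 alternatives: with DESeq2 (adjusted p = 0.0260), without the filter on low counts (0.0169), with the class of mitochondrial share as a term (0.0111) and without OE-circSHPRH replicate 3 (0.0296). Its adjusted p ran up to 0.378. In these 4 fits 79, 194, 171 and 311 genes of the whole table passed, in either direction.

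MCM2 to MCM7 together had a median of -0.24, with 6 of 6 genes below OE-NC without overlap, which held for 7.57% of all genes. The remaining 40 genes had a median of -0.09, with 32 negative. Among them 9 were lower and 2 higher without overlap, against 7.57% and 7.99% of all genes. Of these 40, 8 were lower and 2 higher at an unadjusted p under 0.05, where 5.02% and 5.33% of all genes were. The count of 2 is thus near the share over all genes, and it was 0 with DESeq2. The 2 higher ones, named after their values were seen, were RRM2B, the ribonucleotide reductase subunit induced by p53 (0.11, SE 0.048), and RBBP4, a histone-binding protein of CAF-1 and other complexes (0.09, SE 0.041). RRM2B had 108, 101 and 102 CPM in OE-NC and 109, 114 and 110 in OE-circSHPRH. Whether these lists differ from the 38 genes was not tested.

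**Figure D4:**
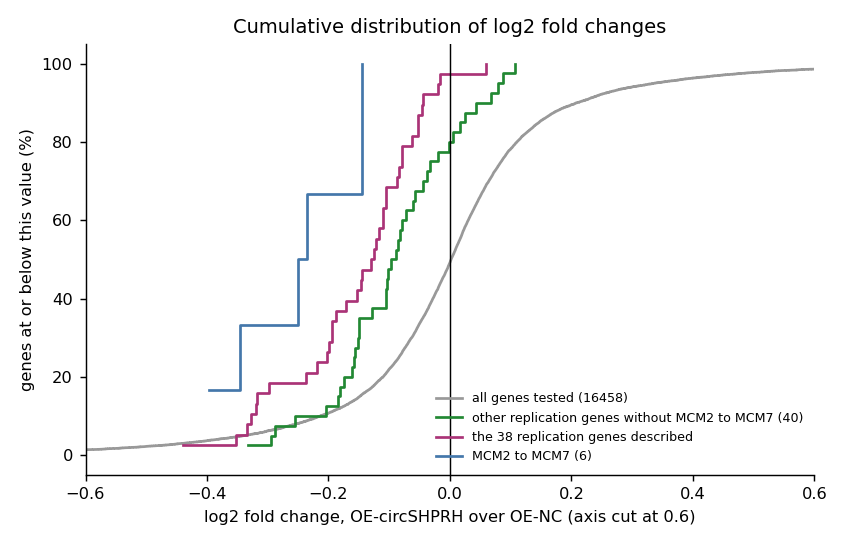
Cumulative share of genes (vertical axis, percent) at or below each log2 fold change (horizontal axis) for the 38 replication genes, MCM2 to MCM7, 40 other replication genes and all 16458 genes tested, with the horizontal axis limited to values between -0.6 and 0.6. The medians are -0.13, -0.24, -0.09 and 0.0018 in that order.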

How the data were processed

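The authors deposited 1 table with raw read counts per gene and library, the authors' FPKM values, counts divided by a size factor (signal), the authors' log2 fold changes and their p-values. The submitters' processing notes name GRCh37, whereas start, end and strand of all 28752 genes equal those of GENCODE 29 on GRCh38. Aligner, counter, strand setting and the authors' test: not given in the sources used here. FPKM lengths are merged exons of all transcripts for the 38 genes, so levels of genes with rarely used exons are understated.

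Genes were filtered with filterByExpr (minimum count 10, minimum total 15) and tested with edgeR 4.0.16 (TMM, glmQLFit, glmQLFTest, group only, two-sided), checked on simulated data. The SE is the absolute log2 fold change over the square root of F. DESeq2 1.42.0 and limma 3.58.1 (voom) were alternatives. Log2 CPM used a prior count of 2. In every gene, 95% intervals use the fit's degrees of freedom. Pairs of libraries within a group differed by more than sampling noise (chi-square per gene 2.20 to 7.90). The 38 genes, the further lists and the tests were chosen with earlier results of these data known. Values per library are given for the 2 smallest p and the highest FPKM in each role, and for the further replication genes past the threshold or with the 4 smallest p. One gene that this rule selects is not reported here. Other genes shown in each library were chosen after their values were seen. Promoters come from RefSeq. Exons of 18 of the 38 genes overlap another gene.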

Additional observations from a re-analysis of the deposited data

How the results depend on the processing

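The direction of the list held throughout: 34 to 37 of the 38 genes were negative in the 12 alternatives, and 10 to 15 were lower at an unadjusted p under 0.05, with 0 higher. The matching share of all genes that were lower ran from 3.35% with DESeq2 to 7.6% without OE-circSHPRH replicate 3. The number lower at an adjusted p under 0.05 was 2 without the filter on low counts (CDT1 and FEN1), 1 with the class of mitochondrial share as a term (CDT1) and 0 to 1 with a library left out (CDT1, without OE-circSHPRH replicate 3). Over all genes tested, 194 of 28752, 171 of 16458 and 311 of 16811 passed in these fits, in either direction. In the fit used for the Results 10 passed as lower and 21 as higher. The median of the 38 genes was -0.15 with the class of mitochondrial share as a term and -0.16 to -0.12 with a library left out. Genes of the 38 that were lower without overlap numbered 12 with RLE scaling and 13 by library total alone, both chosen after the data were seen. The share over all genes, 7.57%, is for TMM scaling, and the shares that match these counts are not given here. For SLBP the value ran from -0.045 to 0.016 with a library left out, and it was positive in 2 of these fits. Of 216 values of 19 named genes under alternatives, 214 kept their direction. DESeq2 gave no adjusted p for 29 of the 38 genes. Replicate numbers did not pair the libraries: same-numbered libraries had correlations of deviations of -0.04, -0.03 and -0.11. With the replicate block 13 of the 38 genes were lower at an unadjusted p under 0.05 (3.77% of all genes) and 0 after adjustment. The median of the 38 was -0.13 in that fit, and MCM5 and MCM2 had edgeR adjusted p of 0.0744 and 0.143. The further replication genes higher at an unadjusted p under 0.05 numbered 0 to 2. Counts of 46 to 83 for POLA2 limit its precision.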
